A study of Mus musculus with 12 samples.

Results

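Testis given busulfan plus L.J. is compared here with testis given busulfan alone, in 6 libraries, 3 of each group, out of 12 in the series. It covers the 14675 genes, of 21004 in the deposited table, that reached at least 1 FPKM in at least 3 of the 12 libraries. FPKM corrects a gene's reads for its length and for the size of the library. All groups came from ICR mice, an outbred strain, aged 8 weeks. The busulfan plus L.J. group carries a label of 10 mg/kg for L.J. on top of busulfan, and the busulfan group carries busulfan alone. The L.J. group had the same dose label without busulfan, and the control group had neither. The labels do not explain L.J., and the series text speaks of FMT without defining it, so the agent behind that label is not known here. Neither the busulfan dose nor the interval before the testes were taken is stated in the labels. Nothing states that the libraries within a group came from different animals, so p-values reflect the spread between samples only, which may be technical. The question is whether the testis after busulfan differed when L.J. was also given.

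Busulfan is an alkylating drug that crosslinks DNA and is toxic to dividing spermatogonia, the germ cells from which sperm production starts. Spermatogonia enter meiosis as spermatocytes, which become round spermatids and then elongating spermatids that pack their chromatin with protamines. Sertoli cells nurse the germ cells inside the tubule, peritubular myoid cells surround it, and Leydig cells between the tubules make testosterone. In whole testis, fewer cells of a type and less RNA per cell cannot be told apart.

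The libraries as labelled do not show a loss of elongating spermatid transcripts with busulfan, a drug known for germ cell loss. The mean log2(FPKM + 1) of 26 elongating spermatid genes was between 9.39 and 9.60 in the 6 libraries compared here, and between 5.89 and 8.70 in the 6 libraries labelled L.J. or control. The mean of 17 spermatogonial genes was lower in the libraries compared, between 3.02 and 3.15, against 3.33 to 4.01 in those labelled L.J. or control. The mean of 24 Sertoli cell genes was also lower there, between 3.77 and 3.99 against 4.47 to 6.51. The cause of these differences was not tested. Whether the labels with and without busulfan were exchanged cannot be told here. If they were, each value below would set L.J. against control and not busulfan plus L.J. against busulfan. Groups are named by their labels throughout. The values of a library summed to between 492374 and 535515 FPKM in the 6 libraries compared, and the read depth behind them is unknown. Pearson correlations across genes between any 2 of these 6 libraries were 0.981 to 0.991, within and between the groups. Busulfan replicate 1 lay apart from the rest, at -31.2 on a first principal component that held 38% of the variance, where the other 5 libraries lay between -4.0 and 17.5.

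Between busulfan plus L.J. and busulfan alone, levels of germ cell, supporting cell and pathway genes overlapped in nearly every list examined, and a single gene passed the test. By limma on log2(FPKM + 1) with Benjamini-Hochberg adjustment, 1 gene was higher in busulfan plus L.J. (0.00681% of genes tested) and 0 were lower (0%) at an adjusted p of 0.05. The gene that rose was Gm20823, a predicted gene of the Y chromosome present in many near-identical copies. The next smallest adjusted p was 0.906. At an unadjusted p of 0.05, 225 genes were higher (1.53%) and 240 lower (1.64%) in busulfan plus L.J. The 3 libraries of one group lay wholly above those of the other for 498 genes higher (3.39%) and 761 lower (5.19%) in busulfan plus L.J. A fit of all 4 groups, whose spreads differed, called 0 genes and had 109 at an unadjusted p of 0.05.

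The precision of the comparison is set by 3 libraries a group. The median SD of log2 values was 0.12 in busulfan plus L.J. and 0.16 in busulfan. The 95% interval of the log2 change reached a median of 0.30 to either side, and for 14239 genes (97.0%) it lay wholly between -1 and 1. The median log2 change over all genes was -0.04, and 39.5% of genes were above 0. Of 704 distinct members of the 36 gene lists that were tested, 0 passed the adjusted threshold. At an unadjusted p of 0.05, 14 members were higher (1.99%) and 8 lower (1.14%), near the shares over all genes. For 37 members (5.26%) the busulfan plus L.J. libraries lay wholly above those of busulfan, beside 3.39% of all genes. For 26 members (3.69%) they lay wholly below, beside 5.19% of all genes. The interval lay between -1 and 1 for 679 members (96.4%).

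Germ cell transcripts overlapped between the groups at each stage, with differences of less than 0.2 in mean log2 level. The mean log2 level of 17 spermatogonial genes was 3.07, 3.07 and 3.11 in busulfan plus L.J. replicates 1 to 3, against 3.15, 3.07 and 3.02 in busulfan replicates 1 to 3. The mean of 30 meiotic genes was 5.22, 5.24 and 5.13 in busulfan plus L.J., against 5.38, 5.17 and 5.24 in busulfan. The groups overlapped in both stages. The 22 round spermatid genes averaged 6.66, 6.61 and 6.69 in busulfan plus L.J. and 6.70, 6.58 and 6.73 in busulfan. The 26 elongating spermatid genes averaged 9.53, 9.39 and 9.60 in busulfan plus L.J. and 9.43, 9.42 and 9.51 in busulfan, again with overlap. Over all 4 stages 0 members passed the test, 1 higher and 1 lower member had an unadjusted p under 0.05, and every member's interval lay between -1 and 1.

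**Figure D1:**
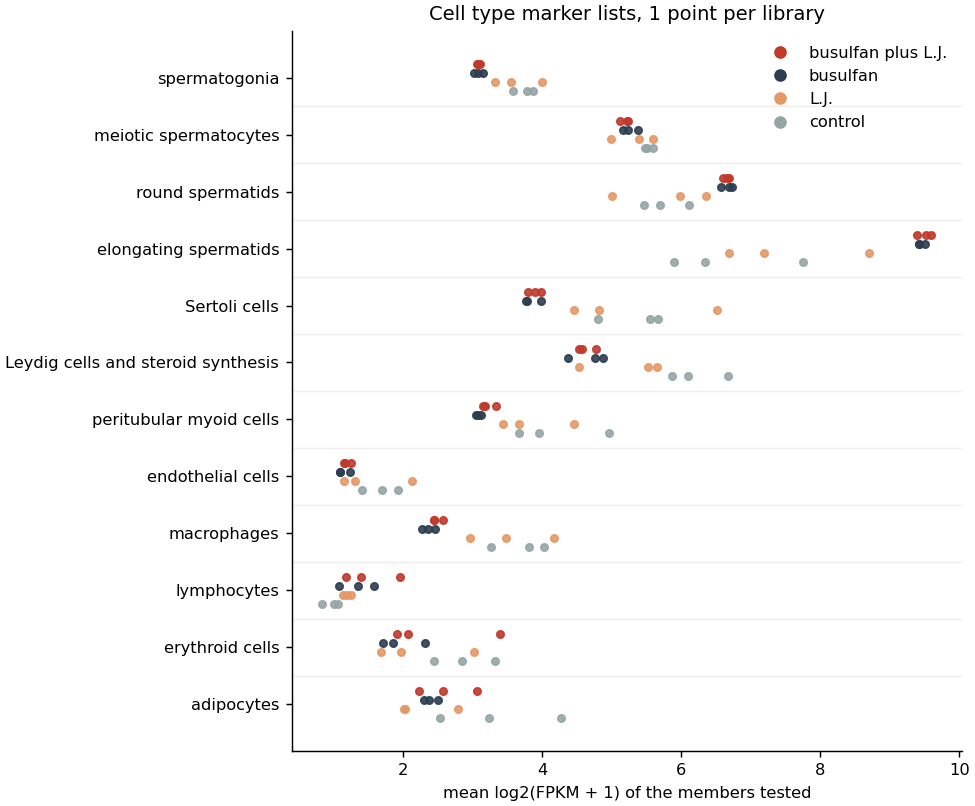
Mean log2(FPKM + 1) of the tested members of 12 cell type marker lists, 1 point per library, with the 4 groups drawn in the order of the legend. In the list of elongating spermatids the 6 libraries of busulfan plus L.J. and busulfan lie between 9.39 and 9.60, and in the lists of erythroid cells and lymphocytes 1 busulfan plus L.J. library lies above the other 5.

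Among spermatogonial genes, Zbtb16, a transcription factor of undifferentiated spermatogonia, was 1.99, 2.11 and 2.81 FPKM in busulfan plus L.J., against 1.74, 2.62 and 2.12 in busulfan. Gfra1, a receptor for the growth factor GDNF on stem spermatogonia, was 1.87, 1.89 and 1.87 FPKM in busulfan plus L.J., against 2.23, 2.14 and 1.97 in busulfan. Kit, the receptor carried by differentiating spermatogonia and by Leydig cells, was 3.71, 3.15 and 3.43 FPKM in busulfan plus L.J., against 5.62, 4.56 and 4.09 in busulfan. Zbtb16 overlapped between the groups, while Gfra1 and Kit lay wholly lower in busulfan plus L.J. The log2 change of Kit was -0.37 ± 0.13 (SE), with an unadjusted p of 0.0222 and an adjusted p of 0.906 by limma. Sohlh1, a transcription factor that drives spermatogonial differentiation and that was chosen after its values were seen, lay wholly on the other side, at 2.17, 2.01 and 2.05 FPKM in busulfan plus L.J. and 1.5, 1.5 and 1.72 in busulfan. Its log2 change of 0.26 ± 0.10 (SE) had, by limma, an adjusted p of 0.906. Both genes therefore had values apart between the groups without passing the test over all genes.

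The meiotic genes Sycp3 and Sycp1, which encode parts of the synaptonemal complex between paired chromosomes, had log2 changes of 0.08 (95% interval -0.18 to 0.34) and 0.12 (-0.22 to 0.46). Dmc1, the recombinase of meiosis, was 5.26, 6.37 and 5.64 FPKM in busulfan plus L.J., against 6.21, 4.16 and 5.99 in busulfan. In round spermatids, Acrv1 and Spaca1, proteins of the acrosome, had log2 changes of 0.05 (-0.17 to 0.28) and -0.02 (-0.26 to 0.22). Acrbp, which binds the zymogen of the acrosomal protease acrosin, was 520, 529 and 593 FPKM in busulfan plus L.J. and 411, 515 and 462 in busulfan. Its libraries did not overlap, and its log2 change of 0.25 had an interval of -0.03 to 0.52.

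In elongating spermatids, Prm1, a protamine, was 4551, 3600 and 4087 FPKM in busulfan plus L.J., against 5638, 3302 and 4774 in busulfan. Tnp2, a transition protein that precedes the protamines on DNA, was 10735, 9144 and 12446 FPKM in busulfan plus L.J., against 7442, 10288 and 10199 in busulfan. Odf1, a protein of the outer dense fibres of the tail, was 1569, 1463 and 1537 FPKM in busulfan plus L.J. and 1215, 1580 and 1424 in busulfan. All 3 genes overlapped between the groups, with log2 changes of -0.14 for Prm1 (95% interval -0.62 to 0.34), 0.22 for Tnp2 (-0.23 to 0.66) and 0.12 for Odf1 (-0.17 to 0.42). Of 28 genes of the axoneme and flagellum, 0 passed. Tekt1, a tektin filament protein of the tail, was 208, 202 and 179 FPKM in busulfan plus L.J., against 163, 175 and 172 in busulfan. Tekt5, of the same family and chosen after its values were seen, was 63.9, 57.3 and 61.7 FPKM in busulfan plus L.J., against 77.4, 66.2 and 76.5 in busulfan. Each of the 2 tektins lay wholly apart between the groups, Tekt1 higher and Tekt5 lower in busulfan plus L.J., and both had an adjusted p of 0.906 by limma.

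The piRNA pathway, whose proteins silence transposons in germ cells, had the lowest median of the 36 lists. Of its 17 tested members 0 passed the test, and all 17 had a log2 change below 0, with a median of -0.18 beside -0.04 over all genes. Its mean log2 level was 5.16, 5.17 and 5.02 in busulfan plus L.J. and 5.46, 5.12 and 5.24 in busulfan, so that busulfan replicate 1 was highest and the groups overlapped. Without busulfan replicate 1 the median was -0.06, beside 0.004 over all genes. Piwil2, a PIWI protein that binds piRNAs, was 22.2, 21.7 and 18.3 FPKM in busulfan plus L.J., against 28.3, 20.8 and 21.6 in busulfan. Mov10l1, an RNA helicase needed to make piRNAs, had a log2 change of -0.07 (95% interval -0.33 to 0.19). Busulfan replicate 1 had the highest mean of the 6 libraries in 20 of the 36 lists.

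In the supporting cells of the testis, the Sertoli and Leydig lists overlapped between the groups, and the myoid list did not. The 24 tested Sertoli cell genes averaged 3.99, 3.80 and 3.90 on the log2 scale in busulfan plus L.J., against 3.99, 3.77 and 3.78 in busulfan. Sox9 and Wt1, transcription factors of Sertoli cells, had log2 changes of 0.01 (95% interval -0.40 to 0.43) and -0.06 (-0.29 to 0.16). Clu, which encodes the secreted protein clusterin, was 412, 361 and 408 FPKM in busulfan plus L.J. and 377, 368 and 339 in busulfan, with overlap. The Sertoli list had 0 members at an unadjusted p under 0.05. Its highest change was that of Trf, transferrin, which the liver also secretes, at 14.2, 5.08 and 4.08 FPKM in busulfan plus L.J. and 5.46, 4.60 and 4.13 in busulfan. Trf stood high in busulfan plus L.J. replicate 1 alone.

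The 18 genes of Leydig cells and steroid synthesis averaged 4.78, 4.58 and 4.53 on the log2 scale in busulfan plus L.J., against 4.77, 4.38 and 4.87 in busulfan. Star, which carries cholesterol into mitochondria, was 34.4, 33.5 and 22.7 FPKM in busulfan plus L.J., against 29.4, 15.2 and 32.2 in busulfan. Cyp17a1, an enzyme on the path to androgens, and Insl3, a peptide hormone of Leydig cells, had log2 changes of -0.06 (95% interval -0.39 to 0.28) and 0.24 (-0.11 to 0.59). The groups overlapped for all 3 genes. Hsd3b1, an isoform of 3 beta-hydroxysteroid dehydrogenase chosen after its values were seen, was 49.1, 52.9 and 54.7 FPKM in busulfan plus L.J. and 71.2, 53.9 and 84.5 in busulfan. Its log2 change was -0.39, and that of the related Hsd3b6 was 0.33, with adjusted p values of 0.906 for both by limma. Hsd3b6 was 27, 28.8 and 21.6 FPKM in busulfan plus L.J. and 18.1, 19.2 and 23.7 in busulfan. The libraries of both isoforms overlapped between the groups.

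The 10 peritubular myoid genes formed the only list of the 36 whose library means did not overlap. This list lay higher in busulfan plus L.J., and 0 of the 36 lists lay wholly lower. The 10 genes averaged 3.19, 3.15 and 3.34 on the log2 scale in busulfan plus L.J., against 3.08, 3.12 and 3.05 in busulfan. All 10 had log2 changes above 0, with a median of 0.11 beside -0.04 over all genes, and 0 passed the test. Acta2, smooth muscle actin, was 14.6, 15.4 and 17.1 FPKM in busulfan plus L.J. and 18.3, 13.9 and 15 in busulfan, a log2 change of 0.00. In the libraries labelled L.J. or control it was higher, at 24.5 to 92.8 FPKM. Actg2, another actin of the list chosen after its values were seen, went the other way. It was 161 to 211 FPKM in the libraries compared and 26.9 to 101 in those labelled L.J. or control. Tagln, an actin-binding protein of smooth muscle chosen after its values were seen, was 7.17, 5.88 and 8.58 FPKM in busulfan plus L.J. and 5.79, 4.30 and 4.65 in busulfan. Its log2 change of 0.47 ± 0.16 (SE) had an unadjusted p of 0.0169 and an adjusted p of 0.906 by limma. Endothelial genes had a median log2 change of 0.04 over 12 tested members, and macrophage genes of 0.15 over 15, with 0 called in either list. C1qa, a complement subunit made by macrophages, was 6.51, 5.69 and 6.55 FPKM in busulfan plus L.J. and 5.53, 4.48 and 6.07 in busulfan. Csf1r, the receptor that maintains macrophages, had a log2 change of -0.05 (95% interval -0.39 to 0.29).

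Lists tied to drug injury and to its repair had 0 members called. Of 22 tested genes of DNA crosslink repair, 19 had log2 changes below 0, with a median of -0.11 beside -0.04 over all genes. With busulfan replicate 1 left out, the list median was -0.07, beside 0.004 over all genes. Fancd2, a central protein of the Fanconi anaemia pathway that unhooks crosslinks, was 5.09, 4.96 and 4.10 FPKM in busulfan plus L.J., against 6.60, 4.95 and 5.65 in busulfan. Wholly lower in busulfan plus L.J. were 4 members, beside 5.19% of all genes, and 0 were wholly higher, beside 3.39%. These were the repair factors Fan1, Ercc4, Palb2 and Dclre1a, chosen after their values were seen, with log2 changes between -0.24 and -0.19. The gap was small for Ercc4, at most 9.55 FPKM in busulfan plus L.J. and at least 9.57 in busulfan. Fan1 was below 1 FPKM in all 6 libraries. Brca1, of homologous recombination, had a log2 change of 0.03 (95% interval -0.25 to 0.30). Among 23 p53 response genes the median was 0.01. Cdkn1a, the cell cycle inhibitor p21, was 9, 9.30 and 9.93 FPKM in busulfan plus L.J. and 7.23, 9.40 and 7.24 in busulfan, with overlap. Mdm2, which restrains p53, had a log2 change of -0.15 (-0.41 to 0.11), and Bax, which promotes apoptosis, one of 0.19 (-0.21 to 0.59). The 20 apoptosis genes had a median of -0.02.

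Antioxidant genes had a median log2 change of -0.10 over 25 members, beside -0.04 over all genes. Of the members 20 lay below 0 and 5 above, where 39.5% of all genes were above 0. The list averaged 4.08, 3.96 and 4.03 on the log2 scale in busulfan plus L.J., against 4.22, 3.92 and 4.11 in busulfan. Busulfan replicate 1 was highest, and the groups overlapped. Sod1 and Cat, which remove superoxide and hydrogen peroxide, had log2 changes of 0.10 (95% interval -0.15 to 0.36) and 0.16 (-0.17 to 0.49). Chosen after their values were seen, Sod3, Gpx3 and Hmox1 were the 3 members of this list with an unadjusted p under 0.05, all higher in busulfan plus L.J., where 1.53% of all genes were. Sod3, the secreted superoxide dismutase, was 44.9, 43.1 and 44.9 FPKM in busulfan plus L.J. and 29.9, 38.5 and 36 in busulfan. Hmox1, haem oxygenase, was 5.31, 5.20 and 7.01 FPKM in busulfan plus L.J. and 5.02, 3.31 and 4.09 in busulfan. Neither gene overlapped between the groups, and Sod3 had a log2 change of 0.35 ± 0.11 (SE) and, by limma, an adjusted p of 0.906. Hmox1 had a log2 change of 0.42 ± 0.16 (SE) and the same adjusted p.

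Junction genes of the blood-testis barrier, the seal between neighbouring Sertoli cells, had a median log2 change of -0.07 over 18 members. Tjp1 and Ocln, of the tight junction, had log2 changes of -0.03 (95% interval -0.32 to 0.26) and -0.03 (-0.32 to 0.25). Gja1, the gap junction protein connexin 43, was 9.66, 10.2 and 9.93 FPKM in busulfan plus L.J., against 14.7, 13 and 10.5 in busulfan. Espn, an actin-bundling protein of the junctions between Sertoli cells and spermatids, was 54.4, 52.5 and 66.3 FPKM in busulfan plus L.J., against 38.8, 51.8 and 40.1 in busulfan. Both were chosen after their values were seen, lay wholly apart between the groups, Gja1 lower and Espn higher in busulfan plus L.J., and had adjusted p values of 0.906 by limma. Of 18 inflammation genes only 8 passed the filter on low values. Il6 was listed at 0 in all 6 libraries, and Tnf and Il1b were at most 0.07 and 0.90 FPKM in any of them. Extracellular matrix genes had a median of -0.01 over 24 members, with 5 wholly higher in busulfan plus L.J. (3.39% over all genes) and 0 wholly lower (5.19% over all genes). Col6a1 and Col6a2, chains of collagen VI chosen after their values were seen, were among these, with log2 changes of 0.32 ± 0.11 and 0.34 ± 0.14 (SE).

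**Figure D2:**
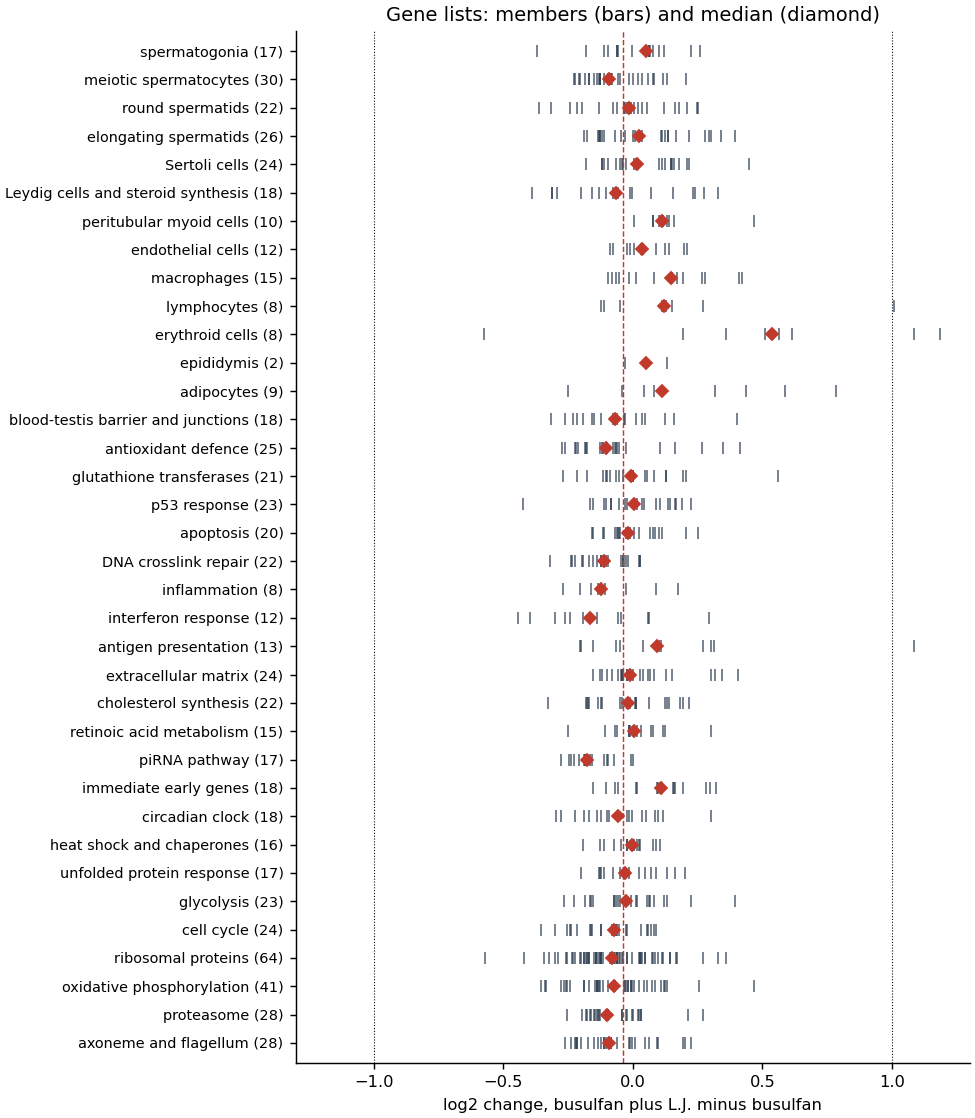
Log2 change, busulfan plus L.J. minus busulfan, of each tested member (bars) and the median (diamond) of the 36 gene lists, with the number tested in parentheses, the median of all genes tested as a dashed line and changes of -1 and 1 as dotted lines. The list medians lie between -0.18 for the piRNA pathway and 0.54 for erythroid cells.

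Housekeeping lists lay near the median of all genes. Ribosomal protein genes had a median log2 change of -0.08 over 64 members, oxidative phosphorylation genes -0.07 over 41, proteasome genes -0.10 over 28, glycolysis genes -0.03 over 23 and cell cycle genes -0.07 over 24. Cholesterol synthesis and retinoic acid metabolism, which supply steroid production and the signal for entry into meiosis, had medians of -0.02 and 0.01. Glutathione transferases, which conjugate busulfan among other compounds, had a median of -0.01 over 21 members. Gstm1 was 511, 542 and 529 FPKM in busulfan plus L.J. and 390, 535 and 626 in busulfan. Over the 36 lists, 34 differed by less than 0.2 between the group means of their log2 levels, and the 2 others were the erythroid and adipocyte lists. The adipocyte list averaged 2.24, 3.07 and 2.58 on the log2 scale in busulfan plus L.J., against 2.51, 2.38 and 2.31 in busulfan. The groups overlapped, with busulfan plus L.J. replicate 2 highest and replicate 1 lowest.

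Only 54 genes had a log2 change beyond 1 in either direction, 38 of them higher and 16 lower in busulfan plus L.J. Of these, 18 lie on the X or Y chromosome, which hold 811 of the genes tested (5.53%), and 14 belong to a list labelled liver secreted proteins. The label does not hold for every member, since the list includes Fabp1, an intracellular protein. That list was written after the values were seen. Among the 45 of the 54 with a transcript in the GENCODE M21 annotation, 30 had more than 50% of their 50-base transcript windows in common with another gene. The labels do not tell how reads matching several copies were assigned, so values of single copies are uncertain. Groups did not overlap for 14 of the 54, which were selected for large changes, beside 3.39% of all genes higher and 5.19% lower.

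**Figure D3:**
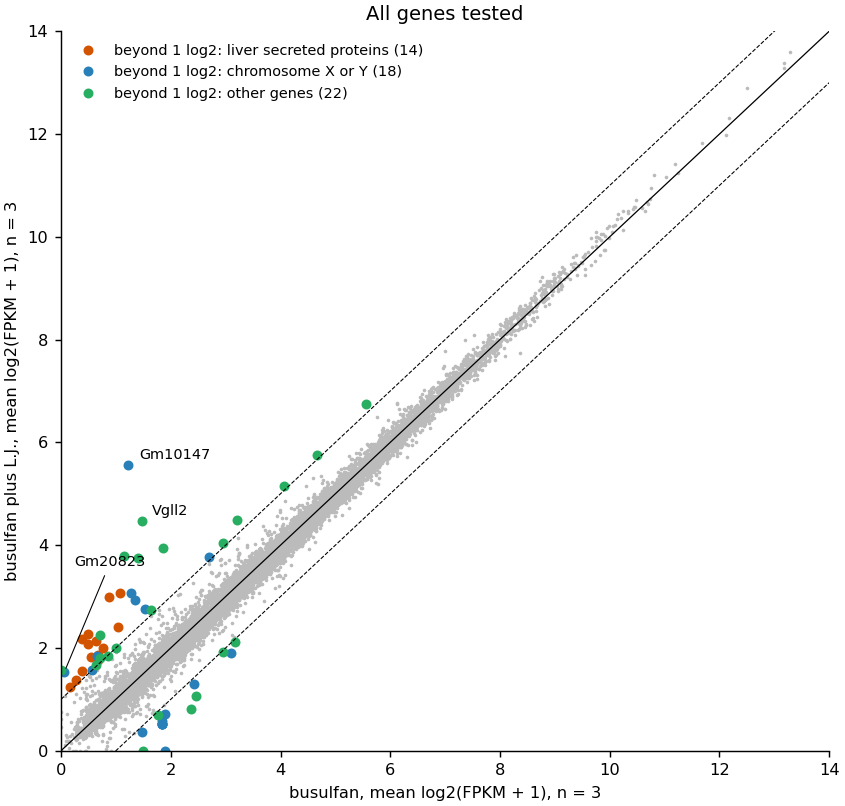
Mean log2(FPKM + 1) of each gene tested in busulfan plus L.J. (vertical) against busulfan (horizontal), n = 3 libraries each, with equality as a solid line and changes of 1 either way as dashed lines. The 54 genes beyond those lines lie mostly at low levels, 14 of them in the liver list and 18 on the X or Y chromosome.

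Gm20823 (gene 100040031, GRCm38 chromosome Y, 62462510 to 62464845) lies on the long arm of the mouse Y, which is made up largely of gene families amplified to many copies and expressed in spermatids. It was 2.08, 2.18 and 1.5 FPKM in busulfan plus L.J., against 0.14, 0 and 0 in busulfan. The groups did not overlap, with a log2 change of 1.48 ± 0.13 (SE) and, by limma, an adjusted p of 0.0357. In the libraries without busulfan it was 0.92, 2.11 and 0.86 FPKM in L.J. and 0.45, 1.77 and 0 in control. The call was lost in the fit of all 4 groups, with a pseudocount of 0.1, where the adjusted p was 0.155, and when any 1 library other than busulfan plus L.J. replicate 3 was left out. Over all alternatives its adjusted p was between 0.0150 and 1.

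Of its transcript windows of 50 bases, 98.6% occurred also in transcripts of 303 other genes. The 28 of those genes that were tested summed to 163, 163 and 158 FPKM in busulfan plus L.J., against 165, 159 and 159 in busulfan. The sum over these 28 genes thus overlapped between the groups. The RefSeq promoter of Gm20823 is shown because it illustrates this copying. It holds 250 bases before and 50 bases after the start, at chrY:62464796-62465095 on the minus strand of GRCm38.p6.
Gm20823: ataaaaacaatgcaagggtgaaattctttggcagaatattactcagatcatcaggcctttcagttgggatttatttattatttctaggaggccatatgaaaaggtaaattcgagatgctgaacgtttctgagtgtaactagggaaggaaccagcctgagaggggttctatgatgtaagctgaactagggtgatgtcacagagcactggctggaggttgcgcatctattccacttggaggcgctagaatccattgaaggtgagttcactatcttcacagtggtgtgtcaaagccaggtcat
The same 300 bases stand at chrY:49845078-49845377, also on the minus strand, as the promoter of Gm21316 (gene 108168570, named LOC108168570 in the table). No other of 32851 promoters reached 90% identity in the same register. Identity was counted without gaps, so a shifted copy scores lower. Gm20815 and Gm20816 scored 84.3% and 84%, with nearly all differences in the first part of the promoter. LOC108168570 was 0.32, 0.88 and 2.51 FPKM in busulfan plus L.J., against 4, 1.61 and 1.08 in busulfan. The groups overlapped, and the copy with the identical promoter was lower on average in busulfan plus L.J. where Gm20823 was higher. Gm20815, another tested copy at a higher level, was 23.3, 26.2 and 22.8 FPKM in busulfan plus L.J., against 24.1, 24.6 and 23.8 in busulfan.

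Gm10147, a predicted gene of the X chromosome, had the largest log2 change of all genes tested and did not pass. It was 91.2, 23.5 and 46.2 FPKM in busulfan plus L.J., against 10.3, 0 and 0.14 in busulfan, a log2 change of 4.34 ± 0.89 (SE) and, by limma, an adjusted p of 0.906. All of its transcript windows (100%) occurred in 48 other genes. The 18 tested among these summed to 482, 638 and 568 FPKM in busulfan plus L.J., against 420, 627 and 549 in busulfan, with overlap. H2al1c, H2al1d, H2al1f and H2al1i, X-linked histone H2A genes of spermatids, were each 0, 0 and 1.92 FPKM in busulfan plus L.J. and 6.98, 1.3 and 1.47 in busulfan. Their values are equal in every library, so these 4 genes count as 1 measurement.

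Among the 54, Vgll2 had no transcript window in common with another gene (0%), as was also true of Rex1bd, Alb, Cd74 and others. Vgll2 (gene 215031, GRCm38 chromosome 10, 52022502 to 52028471) encodes a cofactor of TEAD transcription factors known from skeletal muscle. It was 26.5, 24 and 15.1 FPKM in busulfan plus L.J., against 0.07, 0.64 and 11 in busulfan. The groups did not overlap, but busulfan replicate 3 lay close to busulfan plus L.J. replicate 3. The log2 change was 3.01 ± 0.78 (SE), with an unadjusted p of 0.00472 and an adjusted p of 0.906 by limma. Without busulfan replicate 3 the log2 change was 4.07 and the adjusted p 0.0188. Vgll2 was 14.9, 12.4 and 6.81 FPKM in L.J. and 24.3, 14.2 and 22.3 in control, so that busulfan replicates 1 and 2 were below every other library of the series.

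The called gene is a predicted one, and the rule for named genes passed over predicted, non-coding and replication-dependent histone genes. Gm10147, with an unadjusted p of 0.0012 by limma, was passed over for that reason. Among the other genes, those without overlap and with an average of 5 FPKM or more in the higher group were ranked by p. The named genes were the 12 higher and 12 lower with the smallest p. None of these 24 passed the test, and each had an adjusted p of 0.906 by limma. Vgll2 is one of the 12 higher. Acsf2, a mitochondrial acyl-CoA synthetase (gene 264895, GRCm38 chromosome 11, 94557102 to 94602139), had the smallest p of the 12 higher. It was 13.9, 13.2 and 12.3 FPKM in busulfan plus L.J., against 9.02, 8.34 and 8.05 in busulfan, a log2 change of 0.58 ± 0.10 (SE). Of its windows, 33.3% are shared with another gene.

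Rfng, a glycosyltransferase that modifies Notch, was 10.6, 10.3 and 16.1 FPKM in busulfan plus L.J., against 6.58, 6.54 and 6.27 in busulfan. Hoxa4, a homeobox gene expressed in male germ cells, was 217, 240 and 319 FPKM in busulfan plus L.J., against 145, 148 and 203 in busulfan. Ifitm2, an interferon-induced membrane protein, was 36.3, 33.9 and 34 FPKM in busulfan plus L.J., against 19.1, 17.9 and 27.4 in busulfan. The log2 changes were 0.81 ± 0.17 for Rfng, 0.64 ± 0.18 for Hoxa4 and 0.69 ± 0.16 for Ifitm2 (SE). Of the windows of Ifitm2, 48.5% are shared with 7 other genes. The interferon response list, which holds other members of that class, had a median of -0.17 over 12 members. Without busulfan replicate 1 it was -0.001, beside 0.004 over all genes. The other higher genes had log2 changes between 0.35 and 0.66. They were Thra, a thyroid hormone receptor; Ncan, the proteoglycan neurocan; Itm2c; Rhoc, a small GTPase; Vamp8, a vesicle fusion protein; Wbp4, a splicing factor; and Nat8, an acetyltransferase. Thra was 6.81, 6.83 and 7.69 FPKM in busulfan plus L.J., against 5.27, 5.4 and 5.37 in busulfan, so that it had a small change and a small spread.

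Of the 12 lower genes, Tmem242 (gene 70544, GRCm38 chromosome 17, 5410864 to 5440260), a mitochondrial membrane protein, had the smallest p. It was 36.3, 32.9 and 37.9 FPKM in busulfan plus L.J., against 55.6, 48.7 and 57.6 in busulfan, a log2 change of -0.58 ± 0.10 (SE). Tfb1m, which methylates mitochondrial ribosomal RNA, lies 1.89 Mb away and was 13.3, 15.6 and 15.7 FPKM in busulfan plus L.J., against 20.1, 22.5 and 17.8 in busulfan. Of the 5 tested genes from Tfb1m to Tmem242, 2 were wholly lower in busulfan plus L.J. and 0 wholly higher, beside 5.19% lower and 3.39% higher over all genes, and the median log2 change was -0.38. The pair was chosen for its values, so its closeness is a description only.

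Zfp868, a zinc finger gene, and Rex1bd had the largest decreases of the 12 and lie within 0.89 Mb on chromosome 8. Zfp868 was 4.23, 2.36 and 2.13 FPKM in busulfan plus L.J., against 5.97, 6.91 and 7.42 in busulfan. Rex1bd was 5.20, 2.06 and 3.35 FPKM in busulfan plus L.J., against 8.58, 6.80 and 8.75 in busulfan. Ncan, from the higher genes, lies between them, at 4.47, 5.64 and 6.88 FPKM in busulfan plus L.J. and 3.53, 2.95 and 3.08 in busulfan. Of the 34 tested genes in this interval 5 were wholly higher and 2 wholly lower in busulfan plus L.J., beside 3.39% and 5.19% over all genes, with a median log2 change of 0.05. This interval too was chosen for its values. Genotypes of the outbred mice were not analysed here.

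Agt, which encodes angiotensinogen, was 54.3, 41.6 and 61.2 FPKM in busulfan plus L.J., against 78.2, 66.0 and 91.3 in busulfan. Rad1, a subunit of a DNA damage checkpoint clamp, was 5.21, 5.56 and 5.28 FPKM in busulfan plus L.J., against 6.83, 7.48 and 7.76 in busulfan. Nek7, a kinase of mitosis and of the inflammasome, was 3.14, 3.19 and 5.33 FPKM in busulfan plus L.J., against 11.7, 6.2 and 6 in busulfan. For each of the 3 genes all busulfan plus L.J. libraries lay below all busulfan libraries, with log2 changes of -0.58 ± 0.17 for Agt, -0.39 ± 0.10 for Rad1 and -0.85 ± 0.26 for Nek7 (SE). The other lower genes were Susd5, Gmfb, a glia maturation factor, Ubqln5, a ubiquilin, and the X-linked Samt2 and Tgif2lx1, with log2 changes between -0.60 and -0.36. Samt2 and Tgif2lx1 share 77.1% and 94.9% of their windows with other genes.

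**Figure D4:**
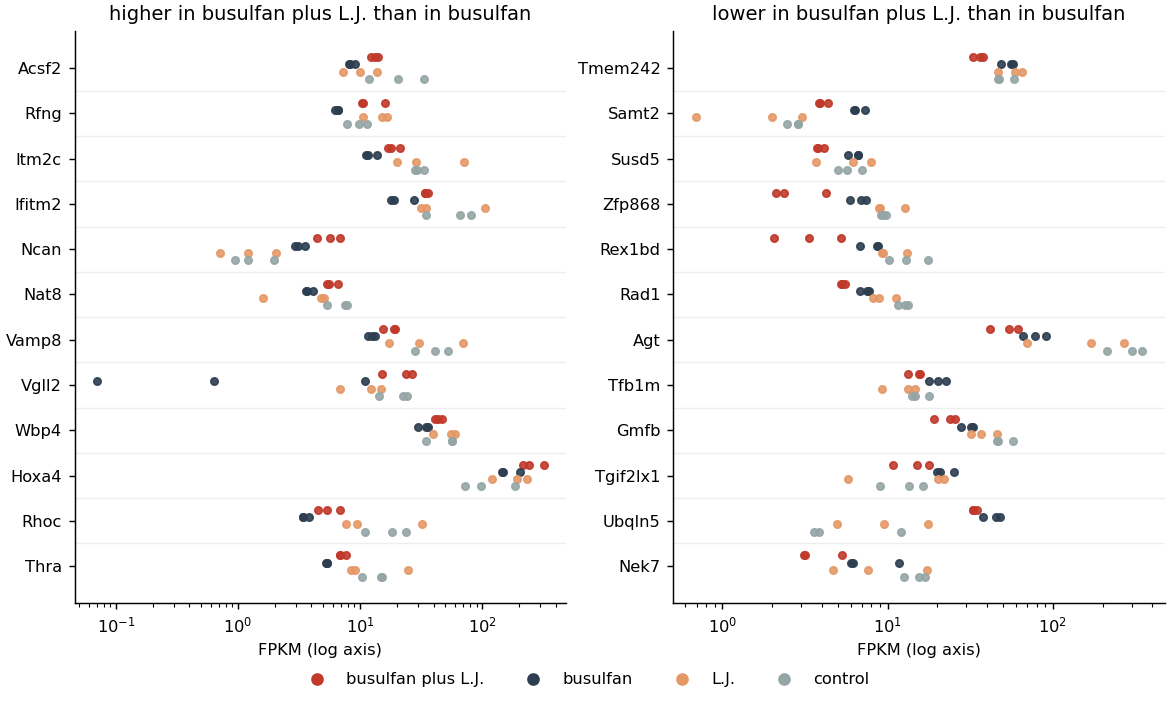
FPKM (log axis) of the 12 higher and 12 lower named genes, 1 point per library, with the 4 groups drawn in the order of the legend. Every gene has its 3 busulfan plus L.J. libraries on one side of its 3 busulfan libraries because the naming rule asks for it, and values of 0 do not occur.

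Other transcripts stood high in single libraries. Genes of the liver list summed to 626, 116 and 80.0 FPKM in busulfan plus L.J. replicates 1 to 3, against 126, 74.6 and 96.4 in busulfan. Of 30 tested, 28 were highest of the 6 libraries in busulfan plus L.J. replicate 1. Alb, albumin, was 40.3, 1.89 and 0.27 FPKM in busulfan plus L.J., against 6.99, 0.10 and 0 in busulfan. Mup2, a major urinary protein, was 80.2, 2.69 and 0.95 FPKM in busulfan plus L.J., against 5.62, 0.43 and 0 in busulfan. On the log2 scale the list averaged 3.97, 1.44 and 0.94 in busulfan plus L.J., against 1.84, 0.75 and 0.80 in busulfan. Replicate 1 was thus the highest of each group. Averages were 2.07, 1.82 and 2.24 in control and 0.96, 0.68 and 1.00 in L.J. The list's median log2 change was 0.95, with busulfan plus L.J. replicate 1 highest, and 0 members passed the test.

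Haemoglobin and B cell transcripts stood high in another library of the same group. The erythroid list summed to 109, 63.9 and 363 FPKM in busulfan plus L.J., against 46.6, 111 and 53.9 in busulfan. Hba-a1, an alpha globin with near-identical copies, was 83.2, 47.5 and 299 FPKM in busulfan plus L.J., against 27.2, 86.9 and 40.8 in busulfan. A list of B cells and class II antigen presentation, also written after the values were seen, summed to 72.5, 55.7 and 160 FPKM in busulfan plus L.J., against 27.3, 82.3 and 61.6 in busulfan. Cd79a, part of the B cell receptor, was 1.52, 1.12 and 11.2 FPKM in busulfan plus L.J., against 0, 3.04 and 0.98 in busulfan. Cd74, the class II invariant chain, was 44.3, 36 and 93.1 FPKM in busulfan plus L.J., against 7.83, 51.1 and 34.9 in busulfan. Both lists were highest in busulfan plus L.J. replicate 3, overlapped between the groups, and had 0 members called. The lymphocyte list, with 15 members in the table and 8 tested, summed to 17.5, 13.7 and 36.6 FPKM in busulfan plus L.J., against 12.7, 20.5 and 16.5 in busulfan. Cd3e, of the T cell receptor complex, was 0.51, 0.56 and 1.02 FPKM in busulfan plus L.J., against 0.23, 0.39 and 0.43 in busulfan. Cd3d, of the same complex, was between 3.75 and 4.56 FPKM in the 6 libraries. The summed list and Cd3e were thus highest in busulfan plus L.J. replicate 3 as well, while Cd3d was not. Epididymal transcripts, a sign of neighbouring tissue, summed to 3.30, 4.64 and 3.51 FPKM in busulfan plus L.J. and 4.04, 2.71 and 4.31 in busulfan. The part of blood or other tissue in any result was not tested.

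**Figure D5:**
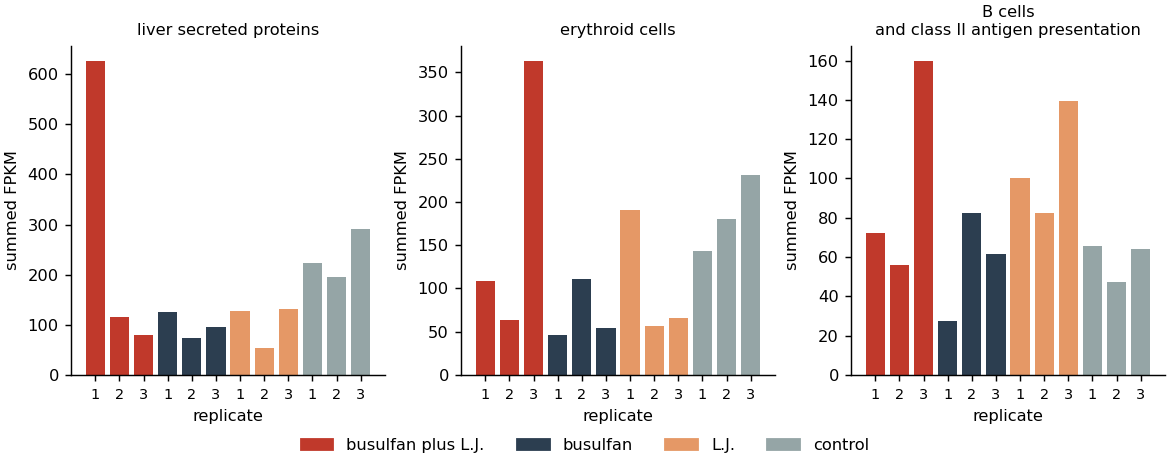
Summed FPKM of the list members in the table, 1 bar per library, for liver secreted proteins, erythroid cells, and B cells with class II antigen presentation. The liver list is 626 in busulfan plus L.J. replicate 1 and at most 126 in the 5 other libraries of busulfan plus L.J. and busulfan, and the other lists are highest in busulfan plus L.J. replicate 3.

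Whether L.J. was associated with a different change with busulfan than without it was tested as an interaction over all 12 libraries. At an adjusted p of 0.05, 0 genes were called (0%), the smallest adjusted p was 1.00 by limma, and 182 genes had an unadjusted p under 0.05. Against the control group, the L.J. group had 0 genes called in the same fit. The L.J. libraries varied most, with a median SD of log2 values of 0.42 beside 0.12 in busulfan plus L.J., 0.16 in busulfan and 0.19 in control, which limits this test.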

How the data were processed

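RNA was sequenced from testis, and the authors deposited 1 FPKM value per gene and library. The submitters' processing notes name Bowtie 0.12.2 and mm10. The quantifier, its annotation, its use of strand and any scaling are not stated there. The number of reads behind a low value is unknown. RefSeq matched 20841 identifiers (99.2%), and 26 symbols turned into dates were replaced. The 2 groups were compared on log2(FPKM + 1) with limma 3.58.1, with trend, in R 4.3.3. This scale understates changes of genes near 1 FPKM. Intervals are 95%. The interaction used all 4 groups. Replicate numbers are not said to pair the samples, so the main fit used no pairing. Members, lists, the rule for named genes and the alternatives were chosen with earlier results of these data known. The rule named 12 genes each way, described in the text, and the 3 leading members of every list. Results of some of these members are not reported here. Of 779 list members, 4 (Ahsp, Lcn10, Dnai1 and Dnai2) are not in the table used. The fit was tested on simulated data. Shared sequence was counted as 50-base windows of GENCODE M21 transcripts. Figures used Python 3.11.15 and matplotlib 3.10.9.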

Additional observations from a re-analysis of the deposited data

Results flagged for a closer look

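Nat8, an acetyltransferase, stood out because every library given L.J. lay above its comparison with busulfan and below it without busulfan. It was 6.59, 5.52 and 5.35 FPKM in busulfan plus L.J., against 3.62, 3.70 and 4.09 in busulfan. Without busulfan it was 5.04, 1.59 and 4.83 FPKM in L.J., against 7.59, 5.34 and 7.86 in control. The log2 change with busulfan was 0.50 and that without it -0.80, a difference of 1.3 whose adjusted p was 1.00 by limma.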

How the results depend on the processing

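The single higher call, Gm20823, was also made with median scaling, quantile normalization and limma robust without trend, and 0 genes were called lower in all of these. The count of higher genes was 0 with a replicate block, in 1 fit of all 4 groups, with a pseudocount of 0.1 or 5, with no filter and with a minimum of 5 FPKM, where Gm20823 was not tested. With the replicate block its adjusted p was 0.0629 by limma, and 770 genes had an unadjusted p under 0.05, beside 465 in the main fit. Deviations of same-numbered libraries correlated at 0.247, 0.091 and 0.121 for replicates 1 to 3, and those of other pairs at -0.191 to 0.108. Each busulfan plus L.J. library correlated best with the busulfan library of its own number. Busulfan replicate 2 correlated better with busulfan plus L.J. replicate 3 (0.108) than with its own number. Whether the numbers pair the samples cannot be told from these values. Leaving out 1 library gave 0 to 2 genes higher, 0 to 1 lower and 0 to 1 in the interaction. The calls were Gm20820 without busulfan plus L.J. replicate 1, Gm20823 without busulfan plus L.J. replicate 3, Vgll2 without busulfan replicate 3, and Gm20842 and LOC105247282 higher with Gm14590 lower without busulfan replicate 2. That last setting had 1851 genes at an unadjusted p under 0.05. Leaving out replicate 1 of both groups, chosen after seeing the data, gave 2 higher, Gm10147 and Gm20820. The causes were not tested. The interaction was 1 only without busulfan replicate 3, and 0 in the other settings. List medians moved beyond the spread in 13 of 574 recomputed values, all without a call. The spermatogonial median of 0.05 was -0.06 without busulfan replicate 3, and the interferon median was -0.001 without busulfan replicate 1. With FPKM and no counts, depth and counting error are unknown, and low or multicopy genes are the least certain.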
